A study of Homo sapiens with 120 samples.

Results

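The replication genes followed here are 48 named genes that license origins of DNA replication, open them and build the replication fork, with 4 regulators of entry into S phase. They were chosen by name out of 27118 distinct gene names in the expression table, and each of the 48 stood on 1 row. The libraries came from CFPAC-1, an established human pancreatic ductal adenocarcinoma line. In the isolation experiment, untreated cells were picked on microrafts, small releasable plates of a cell array, or captured on the C1, a microfluidic instrument, and were compared with bulk RNA. That experiment held 4 bulk libraries, 10 libraries each of rafts with 0, 1 and 2 cells, 5 libraries each of C1 captures with 0, 1 and 2 cells, and 3 libraries of water. Another 4 water libraries came with the gemcitabine experiment, 1 in each arm's library set. In the gemcitabine experiment, rafts scored as proliferative or nonproliferative were taken from cultures left untreated, given saline, or given gemcitabine at 2 nM or at 5 nM, with 8 rafts of each class in each of these 4 arms. Gemcitabine is a deoxycytidine analogue that halts DNA chain elongation. The labels name no separate cultures and give no number of cells for the rafts of the arms, so any p-value measures the spread between rafts and may be technical, and less RNA per cell cannot be told apart from fewer cells on a raft. Each arm was also its own library set, so treatment and library set cannot be told apart.

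In G1 phase the origin recognition complex (ORC1, ORC6), CDC6 and CDT1 load the MCM ring, the core of the replicative helicase, onto DNA, and geminin (GMNN) later blocks CDT1 so that no origin is loaded again. At the start of S phase CDC45 and the GINS complex join MCM to form the active helicase, polymerases copy the strands, and RFC loads PCNA, the sliding clamp that holds polymerases on DNA. Many of these genes are textbook targets of E2F factors, which bind DNA with a DP partner such as TFDP1 and act in late G1, so their mRNAs are used to mark cells in or near S phase.

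Promoters are shown for 4 of the genes described below, a helicase pair, a GINS subunit and the clamp. ORC6, the 1 gene with a negative proliferation estimate, is shown too. All 4 hold a match to the motif given below, whereas POLD2, with the largest proliferation estimate, holds none. Whether matches go with the estimates was not tested. Each window runs from 250 bases before to 50 bases after the gene's start in RefSeq on GRCh38.p14, printed along the gene's own strand. MCM2 lies at chr3:127598161-127598460 on the plus strand, MCM7 at chr7:100101348-100101647 on the minus strand, GINS2 at chr16:85688905-85689204 on the minus strand, PCNA at chr20:5126573-5126872 on the minus strand and ORC6 at chr16:46689409-46689708 on the plus strand. Capitals mark matches to the E2F motif, searched as TTTCCCGC, TTTGGCGC, TTTCGCGC and TTTGCCGC on both strands.
MCM2: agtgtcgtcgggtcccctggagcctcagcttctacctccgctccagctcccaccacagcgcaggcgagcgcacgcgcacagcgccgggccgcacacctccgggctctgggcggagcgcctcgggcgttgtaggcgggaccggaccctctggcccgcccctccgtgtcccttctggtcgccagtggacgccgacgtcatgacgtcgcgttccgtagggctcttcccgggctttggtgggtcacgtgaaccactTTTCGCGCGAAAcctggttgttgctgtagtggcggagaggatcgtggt
MCM7: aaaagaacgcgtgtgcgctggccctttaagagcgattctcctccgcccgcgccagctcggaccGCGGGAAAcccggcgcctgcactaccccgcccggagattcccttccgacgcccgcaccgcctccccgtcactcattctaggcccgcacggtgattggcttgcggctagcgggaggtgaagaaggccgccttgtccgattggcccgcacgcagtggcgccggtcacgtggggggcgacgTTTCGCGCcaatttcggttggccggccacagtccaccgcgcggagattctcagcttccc
GINS2: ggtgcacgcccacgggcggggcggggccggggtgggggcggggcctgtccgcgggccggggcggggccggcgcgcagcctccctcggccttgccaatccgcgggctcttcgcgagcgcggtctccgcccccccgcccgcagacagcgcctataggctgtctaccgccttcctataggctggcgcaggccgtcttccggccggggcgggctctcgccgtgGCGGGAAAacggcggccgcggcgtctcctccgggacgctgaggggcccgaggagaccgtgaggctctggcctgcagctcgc
PCNA: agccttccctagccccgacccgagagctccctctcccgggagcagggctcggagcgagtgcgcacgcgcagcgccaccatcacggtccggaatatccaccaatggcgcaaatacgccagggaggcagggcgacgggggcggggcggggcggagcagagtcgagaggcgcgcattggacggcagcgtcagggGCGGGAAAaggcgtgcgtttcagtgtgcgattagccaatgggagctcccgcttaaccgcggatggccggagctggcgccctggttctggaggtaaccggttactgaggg
ORC6: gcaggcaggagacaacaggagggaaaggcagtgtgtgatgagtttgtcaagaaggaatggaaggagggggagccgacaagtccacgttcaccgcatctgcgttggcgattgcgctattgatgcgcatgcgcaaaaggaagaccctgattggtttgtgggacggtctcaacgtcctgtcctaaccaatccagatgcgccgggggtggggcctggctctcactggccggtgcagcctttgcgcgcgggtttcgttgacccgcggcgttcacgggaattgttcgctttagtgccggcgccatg
Windows were found for 41 of the 48 genes, and 21 of them (51.2%) held at least 1 match. Over all 27305 windows of that length in the table, 908 (3.33%) did. MCM6 held 4 matches, which overlap in pairs on opposite strands, and MCM2, MCM3, MCM7 and E2F1 held 2 each, the pair in MCM2 overlapping as one palindrome. CDC6, PCNA, GINS2 and TFDP1 held 1, in PCNA at -59 to -52 and in GINS2 at -31 to -24 from the start, on the strand opposite the gene. ORC6, GMNN, FEN1, SLBP, POLD2 and CDC45 held none of these letters in the window. Of other replication genes 8 of 28 windows (28.6%) had a match, and of genes of G2 phase and mitosis 1 of 15 (6.67%). No window was matched for MCM4, MCM5, GINS4, RPA2, RPA3, DSCC1 and CCNE2.

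Values are FPKM, fragments scaled by transcript length and by library size. Without counts in the table, library depth is unknown and no counting error can be given. Detection means an FPKM of at least 1. An exact 0 may be a failed estimate as well as an absent transcript, and is reported as listed at 0. The epithelial markers KRT8, KRT18 and EPCAM were detected in all bulk, 1-cell raft and 1-cell C1 libraries, and CFTR was listed at 0 in all 4 bulk libraries. Of the whole epithelial list, each bulk library and each 1-cell C1 capture detected 6 markers and 1-cell rafts 3 to 7. Rafts of the arms detected 0 to 6. Bulk libraries detected 8570 to 10581 genes, 1-cell rafts 4804 to 8461 and 1-cell C1 captures 8560 to 10474. Among the 64 rafts of the arms the count ran from 7 to 10424, and 18 of the 52 that detected at least 1000 genes had a Spearman rho with mean bulk under 0.25. Libraries that stood apart were saline nonproliferative replicate 3 (10424 genes, rho -0.10) and 5 nM nonproliferative replicate 7 (10198 genes, rho -0.02). Among the C1 captures, 2 labelled as empty detected 5501 and 7953 genes.

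Bulk CFPAC-1 cells held nearly the whole replication set, rafts with 1 cell most of it, and C1 captures with 1 cell a minority of it. Of the 48 genes, the bulk libraries detected 43, 47, 48 and 46. Rafts with 1 cell detected 19 to 45 (median 36) and rafts with 2 cells 28 to 48 (median 45). C1 captures with 1 cell detected 16, 17, 13, 18 and 28, although they detected more genes in all than any 1-cell raft. Their highest count, 28, reached into the raft range, where raft replicate 3 had 19. Raft replicate 3 also detected 5 of 20 G2/M genes, against 13 to 20 in the other nine. The 1-cell rafts detected 42, 45, 19, 42 and 43 in library set 1 and 28, 31, 35, 37 and 34 in set 2, so apart from replicate 3 the sets did not overlap. Nor did they in all genes detected, at 7579 to 8461 in set 1 and 4804 to 6127 in set 2. C1 captures with 2 cells detected 9, 10, 38, 25 and 28, the first pair well below the rest.

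**Figure D1:**
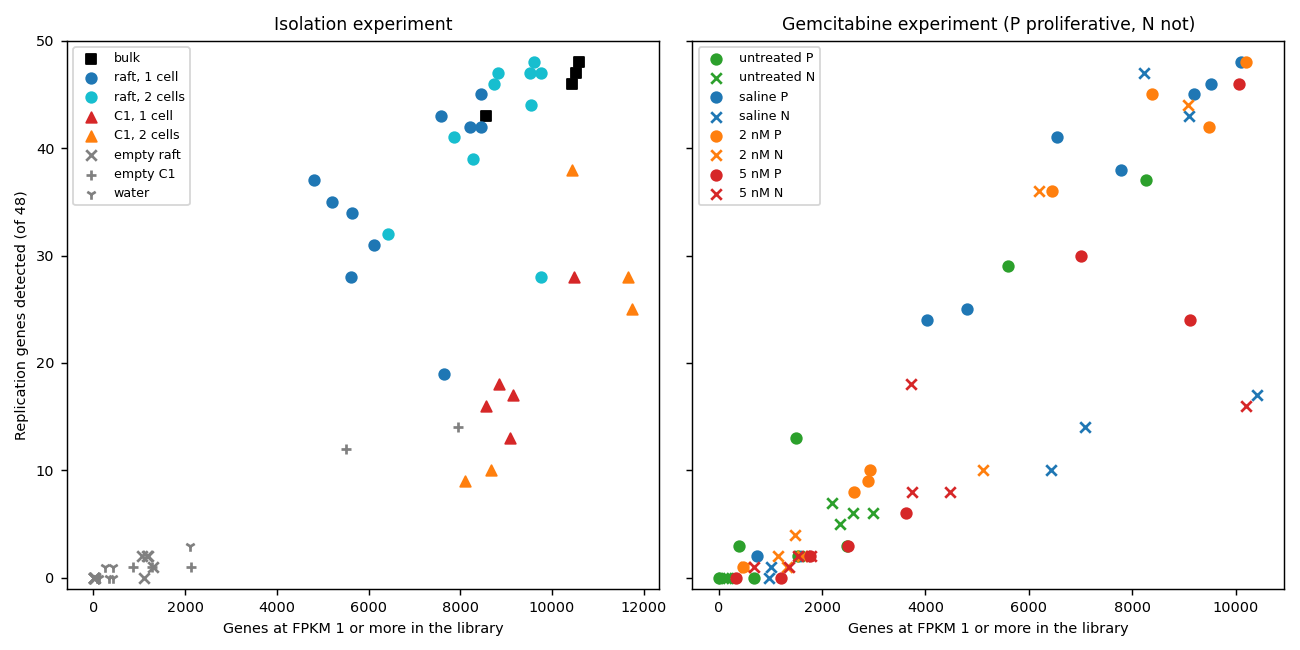
Replication genes detected at an FPKM of 1 or more (vertical axis, of 48) against all genes detected at that level (horizontal axis), 1 point per library, isolation experiment left and gemcitabine experiment right. The 1-cell C1 captures (red triangles) lie at 13 to 28 replication genes with 8560 to 10474 genes detected, to the right of and mostly below the 1-cell rafts at 19 to 45.

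Most blanks carried few of these transcripts, but 2 empty C1 captures carried as many as some C1 captures with cells. Empty rafts detected 0 to 2 of the 48 genes and water 0 to 3. The 5 empty C1 captures detected 12, 14, 1, 1 and 1, the first pair being the captures with 5501 and 7953 genes. That pair lay near the lowest 1-cell C1 captures, at 13 and 16, and above 2-cell C1 replicates 1 and 2, at 9 and 10. Across empty rafts 42 of the 48 genes were listed at 0 in every library, and across water 44. The levels could still be high where a transcript appeared, with RFC2, a subunit of the clamp loader, at 328.8 FPKM in 1 empty raft and GMNN at 193.7 in another. GINS4 read 85.6 and 63.4 in 2 empty rafts and 4.31, 9.70 and 35.6 in 3 empty C1 captures. PCNA and GINS2 were listed at 0 in all empty rafts and all water libraries. In the 5 empty C1 captures GINS2 was also at 0 throughout, while PCNA was above 0 in at least 1.

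**Figure D2:**
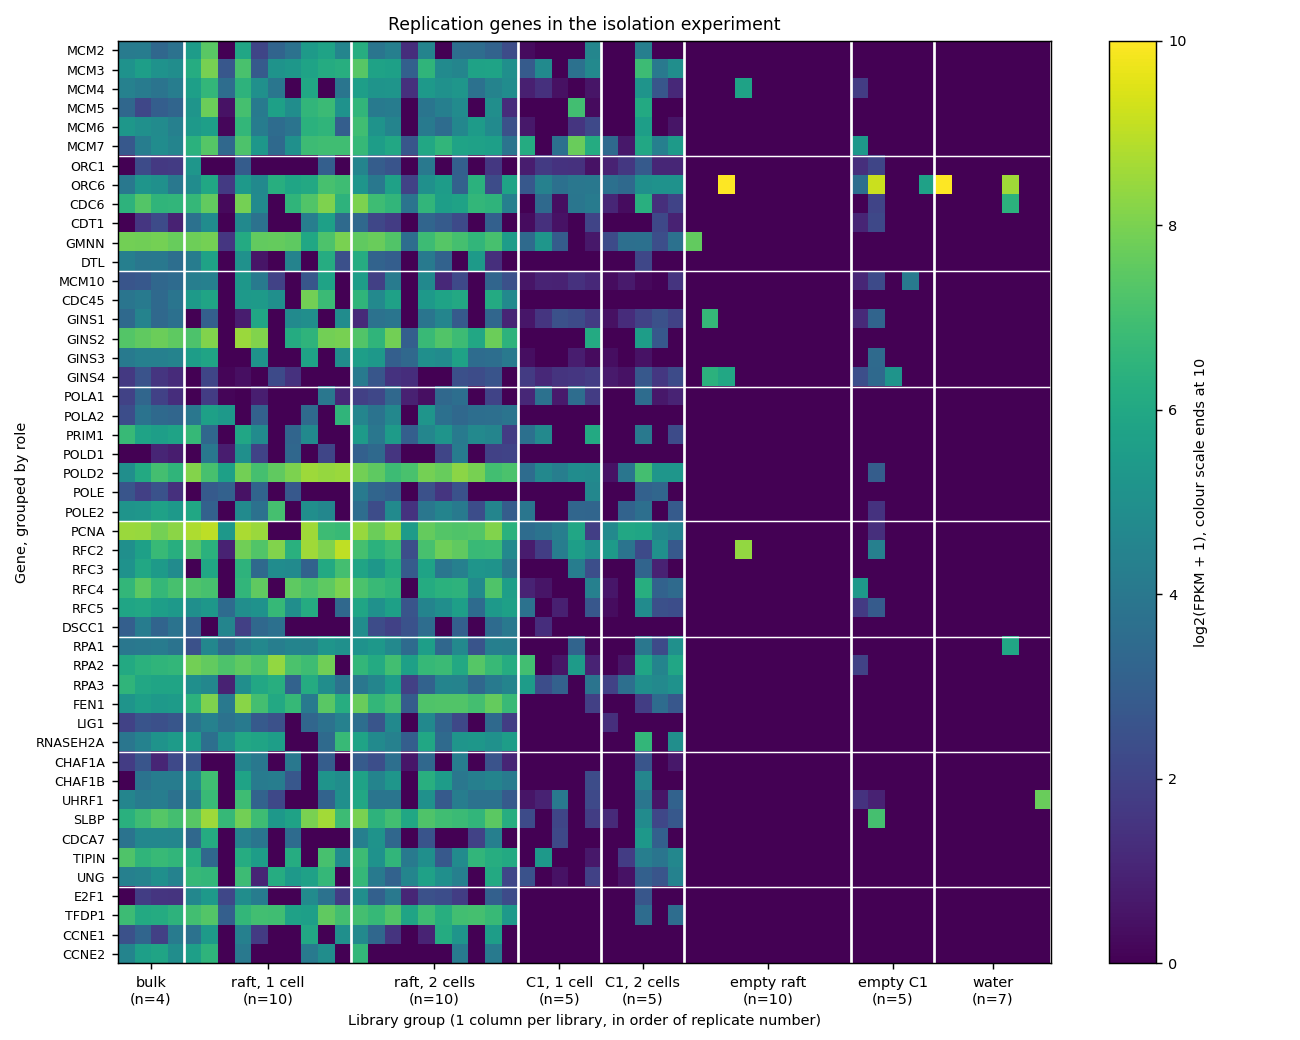
Expression of the 48 replication genes as log2(FPKM + 1) (colour) in each library of the isolation experiment, genes in rows grouped by role and libraries in columns grouped by source. Bulk and raft columns are filled for most rows and C1 columns are dark for many of them. The blanks are dark but for single cells of the map, several of them in the ORC6 row, and for 2 empty C1 columns with 12 and 14 genes detected.

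Between single cells on rafts and single cells on the C1, 44 of the 48 genes were higher on rafts in mean log2(FPKM + 1), and the median difference was 2.83. On this scale changes of low genes are understated. A difference of 2 or more was passed by 32 genes upward, where 12.5% of the 10040 genes detected in at least 5 of these libraries did so, and by none downward, where 16.2% did. The median over those 10040 genes was -0.26, and 4479 of them were higher on rafts. The labels name no separate cultures, so each side counted as 1 sample and no test was made. With a pseudocount of 0.1 the median was 4.06 and with 10 it was 1.35. The median difference was 3.10 with rafts of set 1 and 2.46 with rafts of set 2. The C1 captures formed their own library set, so the instrument and the set cannot be told apart. In 4 genes the lowest raft lay above the highest C1 capture, TFDP1, FEN1, SLBP and POLD2, and in none the reverse. Such separation held for 1.89% of all genes with rafts higher and 7.29% with rafts lower.

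TFDP1, the DP partner of E2F factors, ranged from 7.15 to 186.8 FPKM in the 10 rafts (median 121), and each of the 5 C1 captures listed it at 0. Its bulk values were 116.4, 67.1, 70.2 and 87.9. FEN1, the nuclease that trims Okazaki fragments, ranged from 15.7 to 299.5 FPKM in rafts (median 93.4) and was listed at 0 in 4 C1 captures and at 2.74 in the fifth. The raft medians of both genes were above every bulk value, FEN1 reading 35.0, 48.1, 41.0 and 44.1 in bulk. SLBP, which binds the stem-loop of histone mRNAs, ranged from 39.5 to 391 FPKM in rafts (median 143) and read 3.90, 0, 3.20, 0 and 2.49 in C1 captures. POLD2, the second subunit of polymerase delta, ranged from 50.9 to 371.3 in rafts (median 247) and read 10.6, 24.6, 18.4, 28.1 and 26.3 in C1 captures. The lowest value of both genes on rafts was well above their highest on the C1.

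GINS2, a subunit of the helicase activator GINS, was high or listed at 0 with little between. On rafts it ranged from 0 to 360.4 FPKM (median 190.0), with replicates 3 and 6 at 0 and the other eight at 70.3 or more. On the C1 it was listed at 0 in 4 captures and stood at 68.1 in the fifth. RFC4, another clamp loader subunit, ranged from 0 to 258.1 FPKM on rafts (median 148), again with replicates 3 and 6 at 0, and read 1.00, 0.47, 0, 0 and 19.4 on the C1. PCNA was detected in all 5 C1 captures at 10.7, 12.9, 18.2, 59.8 and 2.61, and on rafts it ranged from 0 to 516.3 (median 237), so the groups overlapped. GMNN ranged from 1.97 to 249.6 on rafts (median 188) and read 10.1, 37.6, 6.60, 0 and 0.55 on the C1, overlapping through raft replicate 3.

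All 6 MCM subunits had higher means on rafts, with differences of 1.13 to 3.91. MCM7 overlapped widely, at 70.1, 0, 11.8, 211.7 and 71.02 FPKM on the C1 and 9.48 to 164.3 on rafts (median 99.6). MCM5 was listed at 0 in 3 C1 captures, stood at 0.24 in another and reached 125.8 in replicate 4, while rafts ran from 0.42 to 212.7 (median 43.6). MCM2 ranged from 0 to 172.5 on rafts (median 32.7) and read 0.21, 0, 0, 0 and 22.8 on the C1. The loading factor CDC6 ranged from 0 to 264 on rafts (median 96.1) and read 0, 9.58, 0.30, 14.3 and 16.7 on the C1.

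Of the 4 genes that were not higher on rafts, POLA1, the catalytic subunit of polymerase alpha, had the lowest difference, -1.40, with rafts at 0 to 14.6 FPKM and C1 captures at 1.15, 12.4, 0.63, 10.8 and 2.41. GINS4 had a difference of -0.92, with C1 captures between 1.21 and 2.43 and 3 of 10 rafts detected. ORC1, the largest origin recognition subunit, differed by -0.06 and PRIM1, the primase subunit that starts each new strand, by -0.01, with overlapping ranges. Of the G1/S regulators, the cyclins CCNE1 and CCNE2, which activate CDK2, and E2F1 were listed at 0 in all 5 C1 captures. On rafts CCNE1 ranged from 0 to 63.0 FPKM, CCNE2 from 0 to 89.02 and E2F1 from 0 to 41.6, with 6, 5 and 8 of 10 rafts detected. In all, 11 of the 48 genes were listed at 0 in every 1-cell C1 capture, CDC45 and LIG1 among them.

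Against bulk, single cells on the C1 were low for most of this set, and single cells on rafts differed less. The median raft-minus-bulk difference was -0.32, with 17 genes higher and 31 lower, where the median over 9552 genes was -0.61. Of those 9552 genes 2659 were higher and 6893 lower. The median of the 48 was -1.29 with a pseudocount of 0.1 and 0.08 with 10. A difference past 2 was reached by 1 gene upward (1.6% of all genes) and 5 downward (9.75% of all genes). No gene had separate ranges, against 0.576% of all genes with rafts higher and 2.26% with rafts lower. The C1-minus-bulk median was -3.27, with 2 genes higher and 46 lower, where the median over 9540 genes was -0.31. Of those 9540 genes 4121 were higher and 5419 lower. In that comparison 35 of the 48 lay past -2 (17.5% of all genes) and none past 2 (10.8%), and in 32 the highest C1 capture was below the lowest bulk library (13.9% of all genes). Of the 48, 34 met the detection filter that defines all genes there. These comparisons share the bulk libraries with each other.

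MCM5 was the 1 gene past a raft-minus-bulk difference of 2, at 2.44, with bulk at 9.24, 3.38, 6.83 and 8.56 FPKM. E2F1 followed at 1.95, with bulk at 0, 2.52, 1.93 and 1.83 and a raft median of 14.9, and CDT1 at 1.84, with bulk at 0, 2.03, 3.90 and 0.92 and rafts at 0 to 51.0. MCM7 (1.79) had bulk values of 5.69, 17.8, 28.3 and 21.8, and POLD2 (1.54) of 29.7, 67.0, 127.8 and 92.8. These raft values spread more widely than bulk and overlapped it in every case. At the other end were PRIM1 (-3.10), with bulk at 104.9, 54.3, 47.96 and 54.4 and rafts at 0 to 102.5, and TIPIN (-2.83), a fork protection factor, with bulk at 151.7, 91.1, 105.1 and 94.1 and rafts at 0 to 136.0. CCNE2 (-2.71) read 21.9, 49.3, 55.9 and 28.6 in bulk and was at 0 on 5 of 10 rafts.

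On the C1 the genes farthest below bulk were TFDP1 (-6.40), GINS2 (-6.32) and RFC4 (-5.78), each listed at 0 in at least 2 captures. MCM7 (0.66) and POLA1 (0.05) stood above bulk, where POLA1 read 2.94, 8.74, 2.86 and 1.48. GINS4 (-0.19), ORC1 (-0.25) and CDT1 (-0.36) came next, all low in both sources. GINS4 read 2.19, 4.83, 1.90 and 1.34 in bulk, and ORC1 read 0, 3.88, 2.20 and 2.34 against 0.75, 2.28, 1.73, 1.72 and 0.40 on the C1. CDT1 read 0.26, 1.59, 0.41, 0 and 3.13 on the C1.

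The 5 genes highest in bulk were PCNA at 361.8, 349.5, 236.4 and 308.1 FPKM, GMNN at 236.3, 228.3, 242.2 and 202.8, GINS2 at 157.9, 188.6, 216.4 and 182.2, RFC4 at 98.8, 176.5, 101.4 and 133.6 and SLBP at 80.2, 116.6, 165.0 and 126.3. Because FPKM is scaled by length these levels can be set side by side, and PCNA and GMNN overlapped while both stood above RFC4. CDC6, at 86.6, 158.1, 93.2 and 95.9, had a higher bulk median than the other loading factors, ORC1, ORC6 and CDT1. MCM2 read 17.1, 17.5, 9.03 and 12.8. CCNE1 read 4.54, 8.56, 2.69 and 16.7, below CCNE2 in each library. In bulk, 43 of the 48 genes were detected in all 4 libraries, and CDT1, ORC1, POLD1, CHAF1B and E2F1 were not.

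The set differed little between rafts with 2 cells and with 1. The median 2-cell minus 1-cell difference was 0.07, with 28 genes higher and 20 lower and none past 2 in either direction, while the median over 10529 genes was 0.40 and 2.91% of them lay past 2 upward and 0.019% downward. Of those 10529 genes 7911 were higher and 2618 lower. The largest positive differences belonged to genes listed at 0 on 2 to 5 of the 1-cell rafts. GINS3, a GINS subunit, differed by 1.68, with 5 of 10 detected on 1-cell rafts and 10 of 10 on 2-cell rafts (7.07 to 52.8 FPKM, median 21.5). TIPIN differed by 1.47 (5.86 to 116 with 2 cells), PRIM1 by 1.41 (2.40 to 44.2), PCNA by 1.14 (43.8 to 351.7) and GINS4 by 1.06 (0 to 15.9). The lowest were MCM5 at -1.95 (0 to 95.1 with 2 cells), CDT1 at -1.18 (0 to 9.48) and MCM2 at -1.08 (0 to 74.6). All 48 ranges overlapped those of 1-cell rafts, and over all genes 0.0095% did not, with 2 cells higher. Raft 2-cell replicate 4 stood low, with 28 of 48 replication genes and 8 of 20 G2/M genes.

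On the C1 the median 2-cell minus 1-cell difference was 0.35, with 27 genes higher, 16 lower and 5 equal, beside 0.14 over 9912 genes. Of those 9912 genes 5693 were higher and 4219 lower. RNASEH2A, a subunit of the enzyme that removes ribonucleotides from DNA, was the 1 gene past 2 (4.25% of all genes), and none lay past -2 (1.32%). It was listed at 0 in all 5 captures with 1 cell and read 0, 0, 96.8, 0 and 29.4 with 2 cells. TIPIN differed by 1.71 (0, 2.45, 18.3, 13.9 and 23.99 with 2 cells), RPA1, of the single-strand binding complex, by 1.56 (0, 0, 14.6, 3.72 and 31.1) and RFC4 by 1.51 (0.51, 0, 76.3, 7.77 and 10.03). TFDP1, at 0 with 1 cell, read 0, 0, 10.6, 0 and 10.8. Replicates 3 to 5 carried most of these values and replicates 1 and 2 were at or near 0. PRIM1 (-1.62), POLA1 (-1.14) and MCM7 (-0.78) had lower means with 2 cells, at up to 15.6, 10.5 and 62.7. None of the 48 ranges were separate, against 0.535% of all genes upward and 0.293% downward, and 21 of the 48 met the detection filter. CDC45, POLA2, POLD1, CCNE1 and CCNE2 were listed at 0 in all 10 captures with cells.

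The 1-cell rafts of set 2 and set 1 differed by a median of -0.61 for the replication genes, close to the -0.48 of 6849 genes. Past 2 lay 2 genes upward (2.18% of all genes) and 7 downward (13.5% of all genes). PCNA had the largest difference, -3.64, with 436.7, 516.3, 38.9, 428.9 and 360.8 FPKM in set 1 and 0, 0, 383.9, 113 and 106 in set 2. CDCA7, a chromatin factor of S phase, differed by -2.86 (9.45, 70.1, 0, 19.8 and 13.9 against 0, 10.3, 0, 0 and 0) and MCM4 by -2.72, with 5 and 3 of 5 detected. In the other direction stood RFC2 at 2.07 (0.92 to 227 in set 1 and 79.9 to 526.3 in set 2), RFC3 at 2.01 (0 to 86.4 and 7.75 to 126.8) and ORC6 at 1.90 (2.21 to 61.8 and 58.4 to 134.7). GMNN differed by 1.07 and POLD2 by 1.04, with raft replicate 3 the lowest for both. None of the 48 had separate ranges between the sets, against 0.496% of all genes upward and 2.09% downward. Within a set, the Spearman rho of each gene with the mean of the other 47 was taken. It was positive for 44 of 48 genes in set 1 (median 0.68) and 37 in set 2 (median 0.32), and 37 were positive in both. The share of all genes with a positive rho was not computed, so these counts do not set the 48 apart. Each rho runs over 5 libraries that also differ in genes detected, and it is given as a description only.

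In the gemcitabine experiment the replication set was mostly filled or mostly empty in a given raft. At least 24 of the 48 genes were detected in 16 of 32 proliferative rafts and 4 of 32 nonproliferative rafts, and none in 4 rafts of each class. This threshold was chosen after the values were seen. By group, proliferative rafts had medians of 3 (untreated, 0 to 37), 39.5 (saline, 2 to 48), 23 (2 nM, 1 to 48) and 4.5 (5 nM, 0 to 46). Nonproliferative rafts had medians of 3.5 (untreated, 0 to 7), 12 (saline, 0 to 47), 3 (2 nM, 1 to 44) and 5 (5 nM, 1 to 18). All pairs of groups overlapped. The G2/M genes moved with them: 15 of the 16 proliferative rafts and all 4 nonproliferative rafts with 24 or more replication genes also detected at least 10 of 20 G2/M genes. The exception was saline proliferative replicate 6, with 38 replication genes and 4 G2/M genes. Rafts well filled for other genes could still lack the set. Saline nonproliferative replicates 5 and 8, with 7093 and 6428 genes and a rho with bulk of 0.61, held 14 and 10 replication genes and 1 G2/M gene each, whereas replicates 6 and 7, with 8234 and 9107 genes, held 47 and 43 and 20 and 15 G2/M genes. In the 2 nM arm nonproliferative replicate 5 held 10 with 5104 genes detected.

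**Figure D3:**
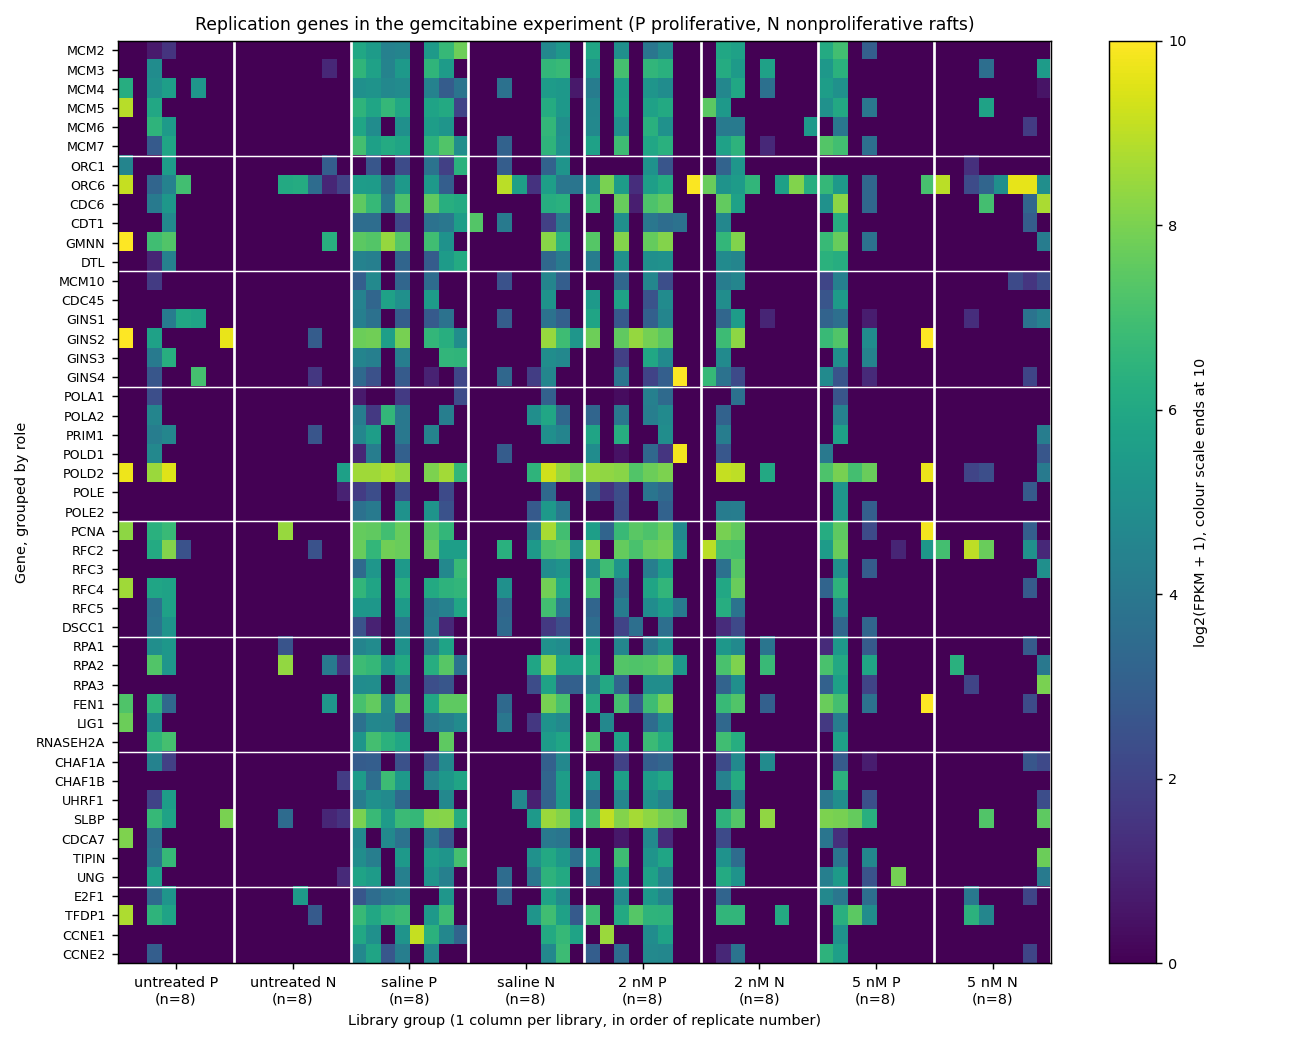
Expression of the 48 replication genes as log2(FPKM + 1) (colour) in the 64 rafts of the gemcitabine experiment, genes in rows grouped by role and rafts in columns by arm and class (P proliferative, N nonproliferative). In 16 proliferative and 4 nonproliferative rafts at least 24 of the 48 rows are at an FPKM of 1 or more, the other columns are dark over most rows, and the ORC6 row is filled in both kinds.

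Proliferative rafts expressed more of the replication set than nonproliferative rafts when the 4 arms were averaged. By limma over the 52 rafts with at least 1000 genes detected, 18 of 48 genes rose at a Benjamini-Hochberg adjusted p under 0.05 and none fell, where 11.5% of the 11416 genes tested rose and 0.78% fell. The estimate was positive for 47 of the 48, beside 8611 of the 11416 genes. The median of the 48 was 1.46 on the log2(FPKM + 1) scale, and the median over all genes was 0.58. The number of genes detected differed between these rafts too, and with it as a covariate 2 of the 18 stayed under 0.05, GINS2 and POLD2. Among the 34 rafts with a rho with bulk of at least 0.25, none of the 48 passed, with a median of 1.14. Without saline nonproliferative replicate 3 and 5 nM nonproliferative replicate 7, the rafts of many genes and a rho near 0, 12 of the 18 passed. Shares of all genes called in these refits are not given here, so the counts do not set the 48 apart from other genes.

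The largest estimates belonged to a GINS subunit and a polymerase subunit. GINS2 rose by 3.97 ± 0.86 (SE, limma adjusted p = 0.00249). Of the 26 rafts of each class in the fit, 19 proliferative and 6 nonproliferative ones had it. Its highest values were 1183.5 FPKM in untreated proliferative replicate 1 and 1105 in 5 nM proliferative replicate 8, rafts that detected 1495 and 3624 genes. In the saline arm proliferative rafts ran from 0 to 247.8 (median 86.5) and nonproliferative rafts from 0 to 347.7 (median 0). In the 5 nM arm proliferative rafts ran from 0 to 1105 (median 13.95), and all 8 nonproliferative rafts were listed at 0. POLD2 rose by 3.98 ± 0.97 (adjusted p = 0.00565, limma). It was detected in 21 proliferative and 11 nonproliferative rafts, at medians of 359.6 and 45.4 FPKM in the saline arm, 237 and 0 in the 2 nM arm, 137.6 and 0 in the 5 nM arm and 0 in both classes of the untreated arm. The classes overlapped in every arm, since some rafts of each were at 0.

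**Figure D4:**
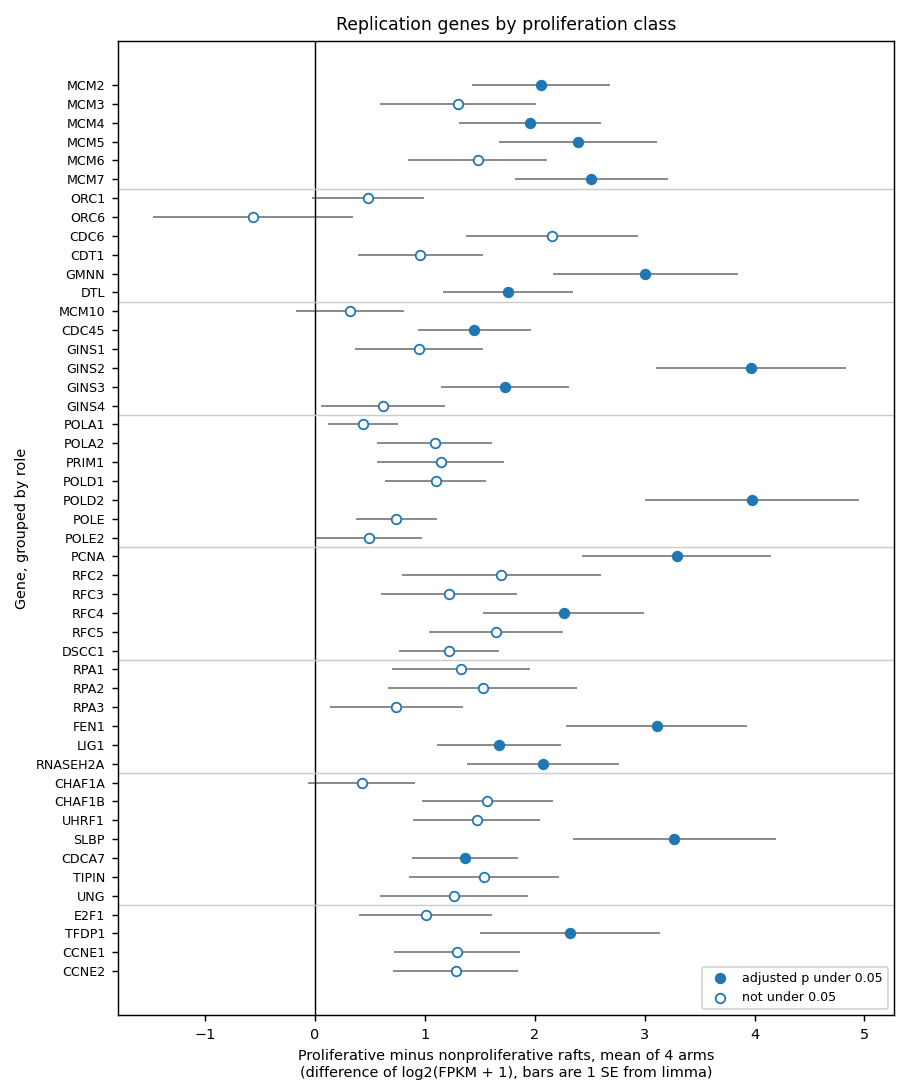
Proliferative minus nonproliferative difference in log2(FPKM + 1), averaged over the 4 arms, for each of the 48 replication genes (points, limma estimate, bars 1 SE), grouped by role, filled where the adjusted p is under 0.05. Every estimate but that of ORC6 lies right of 0, and the 18 filled points run from 1.36 for CDCA7 to 3.98 for POLD2.

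Of the helicase ring, 4 of 6 subunits rose. MCM7 rose by 2.51 ± 0.70 (limma adjusted p = 0.0133), with 16 proliferative and 6 nonproliferative rafts detecting it, and MCM5 by 2.39 ± 0.72 (adjusted p = 0.0212). MCM2 rose by 2.05 ± 0.63 and MCM4 by 1.96 ± 0.65, while MCM6 (1.48) and MCM3 (1.30) did not pass. In saline proliferative rafts MCM2 ran from 0 to 218.8 FPKM (median 43.2) and in saline nonproliferative rafts from 0 to 38.5 (median 0). It was listed at 0 in all 8 nonproliferative rafts of the untreated arm and of the 5 nM arm, and in the untreated proliferative rafts it did not exceed 1.86.

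Of licensing factors and their controls, GMNN and DTL rose. GMNN rose by 3.004 ± 0.84 (limma adjusted p = 0.0143) and was detected in 16 proliferative and 6 nonproliferative rafts. Its saline medians were 139.6 and 0 FPKM, its 2 nM medians 82.2 and 0, and all other medians were 0. DTL, a receptor of the ubiquitin ligase that destroys CDT1, rose by 1.76 ± 0.59. CDC6 just missed, at 2.15 ± 0.78 (limma adjusted p = 0.0528), with saline medians of 89.8 and 0 and a 5 nM nonproliferative raft at 419.5, its highest value in the arms. CDT1 (0.96) and ORC1 (0.48) did not pass. Among the activators CDC45 rose by 1.45 ± 0.52 and GINS3 by 1.73 ± 0.58 beside GINS2, and MCM10, GINS1 and GINS4 had estimates of 0.32, 0.95 and 0.62 that did not pass. Of the polymerases and primase only POLD2 passed, and the other six lay between 0.43 (POLA1) and 1.14 (PRIM1).

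At the clamp, PCNA rose by 3.29 ± 0.86 (limma adjusted p = 0.00900), with detection in 20 proliferative and 7 nonproliferative rafts. Saline proliferative rafts ran from 0 to 204.3 FPKM (median 144) and nonproliferative rafts from 0 to 417.8 (median 0). The 2 nM arm had medians of 77.6 and 0, the 5 nM arm 1.92 and 0, and the untreated arm 0 in both classes. RFC4 rose by 2.26 ± 0.73, while RFC2, RFC3, RFC5 and DSCC1 did not pass, at 1.22 to 1.70. On the lagging strand FEN1 rose by 3.11 ± 0.83 (adjusted p = 0.0103, limma), RNASEH2A by 2.07 ± 0.69 and LIG1, the ligase that joins Okazaki fragments, by 1.67 ± 0.57. The single-strand binding subunits RPA1, RPA2 and RPA3 did not pass, at 1.33, 1.52 and 0.74. FEN1 medians were 156.2 and 0 in saline, 39.7 and 0 at 2 nM, 6.25 and 0 at 5 nM and 0 in both untreated classes.

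SLBP rose by 3.27 ± 0.92 (limma adjusted p = 0.0148). It was the 1 gene detected in all 8 saline proliferative rafts, at 43.6 to 292.4 FPKM (median 110.9), where saline nonproliferative rafts ran from 0 to 360.6 (median 20.1). CDCA7 rose by 1.36 ± 0.48. CHAF1A and CHAF1B, subunits of the histone chaperone CAF-1, UHRF1, which maintains DNA methylation at the fork, TIPIN and UNG, which removes uracil, did not pass. Of the G1/S regulators TFDP1 rose by 2.32 ± 0.82, with medians of 79.1 and 3.10 in saline, 76.9 and 0 at 2 nM, and 0 in both classes at 5 nM and untreated. It passed by little (limma adjusted p = 0.0465). CCNE1 (1.29), CCNE2 (1.28) and E2F1 (1.01) did not pass, and CCNE1 was listed at 0 in all 16 untreated rafts and all 16 nonproliferative rafts given gemcitabine.

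Within single arms no replication gene passed. The counts at an unadjusted p under 0.05 in limma were 5 in the untreated arm, 15 in saline, 7 at 2 nM and 4 at 5 nM, of 48 each, all against 0 at the adjusted threshold. Over all genes the shares at that unadjusted level were 7.03%, 11.0%, 11.7% and 8.96%, and the members' shares were 10.4%, 31.2%, 14.6% and 8.33%, so those at 2 nM and 5 nM were near the background. Over all 11416 genes none passed in the untreated, saline and 5 nM arms (0% in both directions), and 3 rose at 2 nM (0.0263%). Median proliferative-minus-nonproliferative estimates for the 48 were 1.46, 2.11, 1.66 and 0.90 in that order, beside 0.67, 0.45, 0.65 and 0.54 over all genes. The smallest unadjusted p-values in the saline arm belonged to MCM2 (4.33 ± 1.20, limma adjusted p = 0.358) and CHAF1B (4.01 ± 1.13, with the same adjusted p). The difference between the 5 nM and the saline arm in this contrast was tested as an interaction. None of the 48 passed (1 at an unadjusted p under 0.05 in limma, where 3.11% of all genes were), with a median of -1.02 beside 0.09 over all genes.

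Between doses, proliferative rafts given 5 nM gemcitabine had lower estimates than saline rafts for all 48 genes, with a median of -2.47 beside -0.71 over all genes, and none passed the adjusted threshold. Over all genes the estimate was positive for 3420 of 11416. At an unadjusted p under 0.05 limma counted 24 of 48, beside 15.0% of all genes. At the adjusted threshold 5 of all genes fell (0.0438%). The smallest p belonged to CHAF1B (-4.36 ± 1.13, limma adjusted p = 0.0923), detected in 7 of 8 saline rafts at up to 113.9 FPKM and in 1 of 8 rafts at 5 nM, where it read 84.3. CCNE1 followed (-3.62 ± 1.10), detected in 7 and 1 of 8. That single raft for CHAF1B was 5 nM proliferative replicate 2, which detected 46 of the 48 genes. Without it 5 genes fell, CHAF1B by 5.28, RFC5 by 4.36, CCNE1 by 4.34, MCM2 by 4.23 and LIG1 by 3.86, at limma adjusted p-values of 0.0141 to 0.0483, while 1.59% of the 11235 genes then tested fell. These 5 were named after their values were seen, and this raft, 1 of 52 left out in turn, was picked in the same way. Replicate 2 held the most of the 48 genes in its group, so leaving it out lowers the group mean of the genes it held. These p-values therefore do not weigh a fall at 5 nM. Saline rafts also detected more genes than 5 nM rafts, with medians of 7166 and 3065, and the part of this in the result was not tested.

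For 2 nM against saline none of the 48 passed (5 at an unadjusted p under 0.05 in limma, median -0.90, 8 of 48 positive), where no gene of the 11416 did. Over all genes 3.79% had an unadjusted p under 0.05 in limma, the median was -0.37 and 3841 of 11416 were positive. For 5 nM against 2 nM none passed either (8 unadjusted, median -1.42, 2 positive), where 0.00876% of all genes rose and 0.00876% fell. The share of all genes at the unadjusted level was 5.6% there, the median was -0.31 and 4354 of 11416 were positive. These contrasts share groups with each other and with the one above. In nonproliferative rafts 5 nM minus saline had a median of -1.38, with none passing in limma and 3 of 48 at an unadjusted p under 0.05 (6.25%). Over all genes the median was -0.84 and 13.2% were at that level, more than among the 48. Saline minus untreated had a median of 1.91 in proliferative rafts, beside 0.97 over all genes, with 47 of 48 positive, beside 8890 of 11416 genes. None passed (0.00876% of all genes rose) and 13 were at an unadjusted p under 0.05 in limma (27.1%, beside 14.2% of all genes). CHAF1B had the smallest p there (5.28 ± 1.24, limma adjusted p = 0.101), being listed at 0 in all 8 untreated proliferative rafts. As a share of library FPKM the 48 genes took a median of 0.364% in saline, 0.397% at 2 nM, 0.0813% at 5 nM and 0.0898% in untreated proliferative rafts, against 0.310% in bulk.

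ORC6, the smallest origin recognition subunit, was the 1 gene with a negative proliferation estimate, -0.56 ± 0.91 (limma adjusted p = 0.681), which lay within 1 SE of 0. Of the rafts in the fit, 20 proliferative and 23 nonproliferative ones had it at 1 or more. Among 1-cell rafts its Spearman rho with the mean of the other 47 was 1.0 in set 1 and 0.5 in set 2, over 5 rafts each. It also appeared in blanks, at 6412 FPKM in 1 of 10 empty rafts, at 1067.5 and 377.9 in 2 of 7 water libraries and at 11.3, 591.5 and 51.6 in 3 of 5 empty C1 captures. These values exceed its 15.0, 36.0, 31.1 and 15.0 in bulk in all cases but the first C1 capture. In the 5 nM nonproliferative rafts it ran from 0 to 783.7 (median 29.8), and in the proliferative rafts from 0 to 137.1 (median 4.595). On the C1, where most of the set was low, it was 1 of 4 genes detected in all 5 captures with 1 cell. How far such blank signal enters the rafts with cells was not tested.

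**Figure D5:**
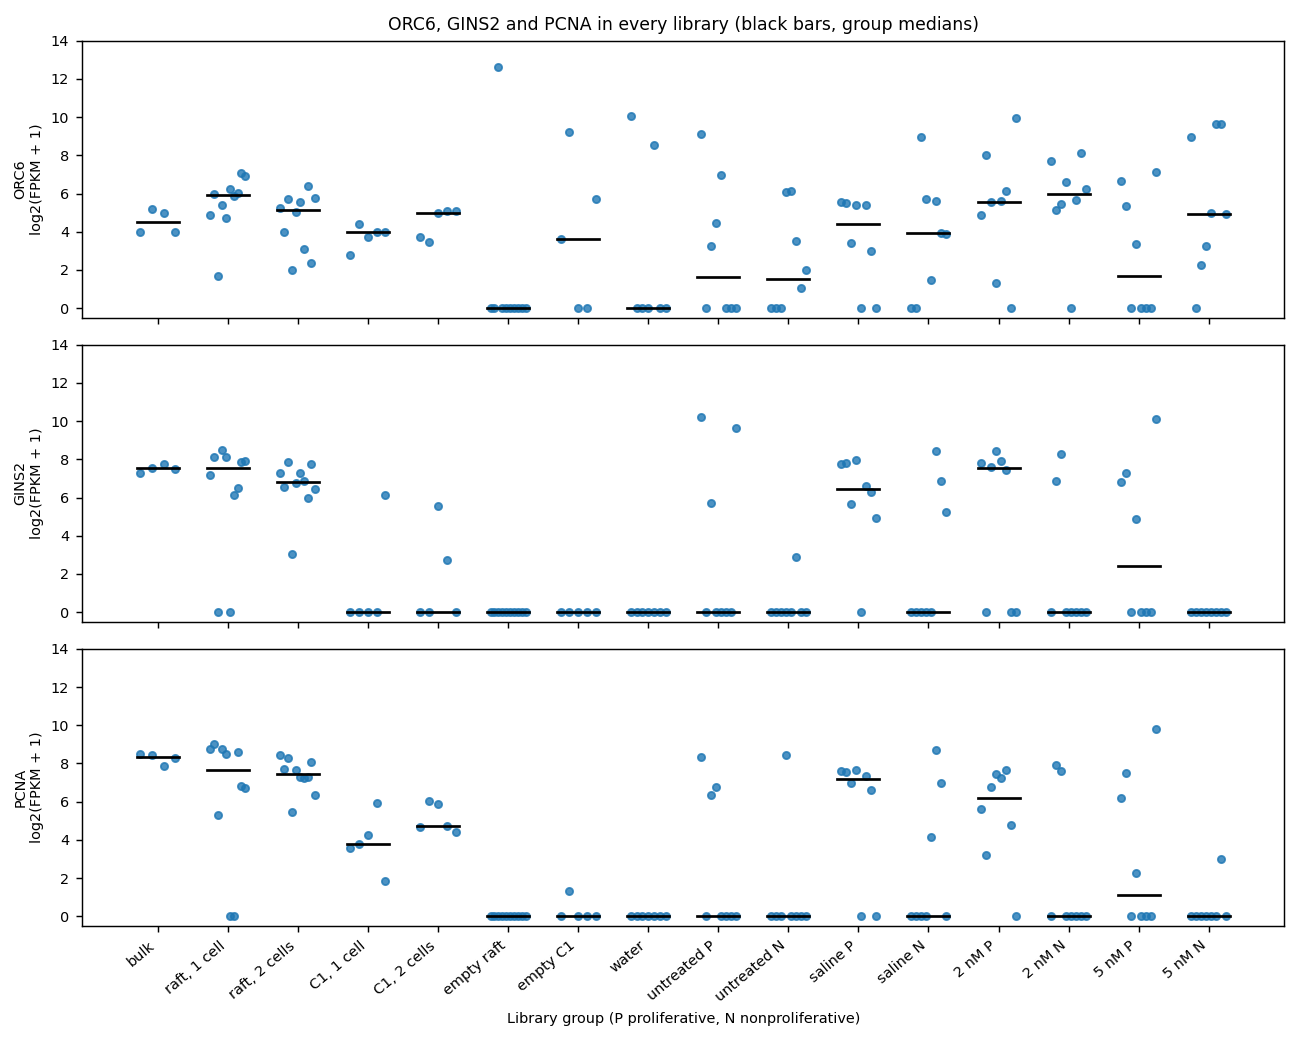
ORC6, GINS2 and PCNA in every library as log2(FPKM + 1) (vertical axes), by library group (horizontal axis, P proliferative, N nonproliferative), with group medians as black bars. ORC6 reaches 6412 FPKM in an empty raft and is found in water and in nonproliferative rafts, whereas GINS2 and PCNA are at 0 in every empty raft and water library. PCNA is above 0 in at least 1 empty C1 capture.

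Other replication genes were called about as often as genes in general. In the proliferation contrast averaged over arms 4 of 34 rose and none fell, near the 11.5% of all genes, with a median of 0.79: TK1, thymidine kinase (4.34 ± 0.91), CCND1, cyclin D1 (3.24 ± 0.76), DUT, which removes dUTP (2.25 ± 0.69), and RRM1, of ribonucleotide reductase (1.93 ± 0.69). Of the 20 G2/M genes 8 rose, with a median of 1.70. Between rafts and the C1 the medians were 1.23 for 35 other replication genes, 4.11 for G2/M genes and 2.83 for the 48. Against bulk, 1-cell rafts had medians of -0.32 for the 48 and -1.38 for G2/M genes, all 20 of which were lower. These lists were compared by counts and medians only.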

How the data were processed

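FPKM values of 120 CFPAC-1 libraries (SMARTer and Nextera XT, per the labels' protocols) were used as the authors deposited them in 1 table of 30504 rows and 27118 names. RSEM and hg19 are named in the submitters' processing notes. The unit FPKM was given with the gene list, and the labels do not state it. Column totals ran from 339644 to 817990, and their CV in libraries of over 3000 genes, 10.3%, was 5.87% after weighting by transcript length. No column was left without a sample. Where a name stood on several rows the highest was kept.

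The gene members and lists were chosen with earlier results of these data known. Groups came from the labels. For the arms, limma 3.58.1 in R 4.3.3 was fitted to log2(FPKM + 1) with its trend option. Tests were two-sided, adjusted by Benjamini-Hochberg over all genes at a threshold of 0.05, from a single fit of 8 groups over 52 of 64 rafts with at least 1000 genes detected and 11416 genes detected in at least 8 rafts. Isolation groups were compared by values without a test, with a filter of detection in 5 or more compared libraries for all genes, since no culture is named. None is named for the arms either. Their tests took rafts as the unit, so those p-values measure only the spread between rafts and not between cultures. On simulated data with 11416 genes, the averaged contrast recovered 3, 31, 50 and 50 of 50 genes at log2 shifts of 1, 2, 4 and 6. It made 7 false calls there. Whether these counts hold for the rafts, where the replication set was mostly filled or mostly empty, was not tested. Genes named were those called, with at most 8 described in full, the 5 highest and 3 lowest differences of each isolation comparison, the 5 highest in bulk, and PCNA, MCM2, MCM7, CDC6, CCNE1, CCNE2, E2F1 and TFDP1. ORC6, CHAF1B and the genes named from other lists were added after their values were seen. Of the lists, KRT19, LYZ and MCMBP were not analysed here. Promoters were searched with Python 3.11.15, pandas 2.3.3 and numpy 2.4.6, and figures were drawn with matplotlib 3.10.9.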

Additional observations from a re-analysis of the deposited data

Results flagged for a closer look

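Extreme values of 3 library measures (genes of the set detected, their summed FPKM without ORC6 and their mean log2 value) were looked for in each group, in 48 checks of a measure in a group. For normally distributed values the limit used picks out about 1 in 20 checks by chance alone. Many of these values are 0, so the rate here is not known. Water replicate 5 detected 3 of the 48 genes, ORC6, CDC6 and RPA1, far from the other 6 water libraries, which detected 0 or 1. Empty raft replicate 4 had a summed FPKM of 382.6 without ORC6, the sum of RFC2 and MCM4, above the other nine. Untreated proliferative replicate 1 had a summed FPKM of 5732 without ORC6, from 12 genes, in a library that detected 1495 genes, above its 7 fellows and above every bulk library, the highest of which had 2352. Untreated nonproliferative replicate 4 had 693.7 without ORC6, from 4 genes, far above the other rafts of its group.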

How the results depend on the processing

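The count of 18 replication genes rising in proliferative rafts averaged over arms was 20 with a pseudocount of 0.1, 18 with repeated names summed and 15 with equal library totals. It was 10 with a pseudocount of 10, 9 with all 64 rafts, 8 with no filter on low genes, 7 with quantile normalization, 5 with genes detected in at least a share of 0.5 of the rafts (only 8 of the 48 were then tested), 2 with genes detected as a covariate and 0 with a rho of at least 0.25, where 34 rafts remained. It was 12 without rafts of over 5000 genes and a rho under 0.25, a setting chosen after seeing the data. All calls were upward. Shares of all genes called under these settings are not given here. The counts thus do not show whether the 48 changed more than other genes did. Quantile normalization moved the median of all genes from 0.58 to -0.02 and that of the 48 from 1.46 to 0.56. Leaving out 1 raft at a time gave 9 to 23. It gave 9 without untreated proliferative replicate 3, saline nonproliferative replicates 1 or 4, or 5 nM proliferative replicate 2, 10 without 2 nM proliferative replicates 5 or 6, and 11 without untreated proliferative replicate 4 or 2 nM nonproliferative replicates 1, 4 or 8. Of the estimates for the named genes under these settings 128 kept their call, 26 lost it, 1 gained it and 1 reversed. The ORC6 estimate turned to 0.56 with a rho of at least 0.25. In single contrasts, 2 genes rose with proliferation at 5 nM with rafts of at least 3000 genes (GINS2 and FEN1), 3 rose from untreated to saline with all 64 rafts (MCM2, CHAF1B and CCNE1), and 5 nM minus saline in proliferative rafts gave 0 to 5 when 1 raft was left out. The 2 and the 3 calls also stand without a share of all genes. The other contrasts stayed at 0 in every setting run. With at least 3000 genes no untreated nonproliferative raft remained, so the averaged and untreated contrasts could not be fitted. The cause of these shifts was not tested. The C1-minus-bulk median of -3.27 was -5.10 with a pseudocount of 0.1 and -1.32 with 10, that of raft minus C1 went from 2.83 to 4.06 and 1.35, and that of raft minus bulk from -0.32 to -1.29 and 0.08. Genes of the set detected averaged 39.0 in bulk at an FPKM of 5, and 11.0 at an FPKM of 5 or 24.2 above 0 in 1-cell C1 captures. Leaving out 1 library moved the isolation medians to 2.60 to 3.16 (raft minus C1), -0.58 to -0.10 (raft minus bulk), -3.40 to -3.04 (C1 minus bulk), -0.24 to 0.37 (raft 2 minus 1), 0 to 0.60 (C1 2 minus 1) and -1.14 to -0.25 (set 2 minus set 1). The raft 2 minus 1 median and the raft-minus-bulk median were near 0 and changed sign with a pseudocount of 10 (-0.03 and 0.08), the former also with quantile normalization (-0.06) and in set 1 alone (-0.05). No paired analysis was possible because replicate numbers only count libraries within a group and no label ties a number to a shared culture or day.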
